A study of Mus musculus with 2 samples.

Results

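The genes of oxidative phosphorylation were followed through single Ctsk-Cre reporter cells of the mouse femur. They were chosen by symbol: Nduf followed by a, b, c, s or v and a digit, Uqcr, Cox4 to Cox8, Atp5, Sdha to Sdhd, and the mitochondrially encoded mt-Nd, mt-Co, mt-Cy and mt-Atp genes, without Ndufa4l2 and the Ndufaf assembly factors. The deposited counts covered 24866 genes, of which 98 matched, 87 of them nuclear and 11 mitochondrial. The cells came from the femurs of 2 C57/B6 littermates aged 6 days, genotype CTSK-cre+ mTMG, and GFP-positive cells were sorted 1 to a well, with animal 1 on plate 47 and animal 2 on plate 48. In this design Cre is made from the cathepsin K (Ctsk) promoter and switches a membrane reporter from Tomato to GFP, so a sorted cell has, or descends from a cell that had, Ctsk promoter activity. There was no untreated or mutant arm, and an animal's own effect and that of its plate cannot be told apart. The comparisons are therefore between kinds of cell within both animals.

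Oxidative phosphorylation is carried out in the inner mitochondrial membrane. Complexes I (NADH dehydrogenase), II (succinate dehydrogenase), III (cytochrome bc1) and IV (cytochrome c oxidase) pass electrons to oxygen, complexes I, III and IV pump protons, and complex V (ATP synthase) uses the proton gradient to make ATP. Complex II is encoded wholly in the nucleus, whereas the other complexes combine nuclear subunits with a few made inside the mitochondrion. Chondrocytes of growing cartilage live without blood vessels and are known for making much of their ATP by glycolysis, and bone-forming cells use both routes.

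The nuclear members were 35 of complex I, 4 of complex II, 8 of complex III, 19 of complex IV (Ndufa4, now counted as a cytochrome c oxidase subunit, among them) and 21 of complex V. The last number includes the pseudogenes Atp5k-ps2, Atp5l-ps1, Atp5l-ps2 and Atp5l2-ps, and Atp5s and Atp5sl, which are not structural subunits. The mitochondrial members were mt-Nd1 to mt-Nd6 of complex I (mt-Nd4l was not analysed here), mt-Cytb of complex III, mt-Co1, mt-Co2 and mt-Co3 of complex IV, and mt-Atp6 of complex V.

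Wells with at least 500 genes and at most 20% of counts on mt- genes were kept. That left 318 wells of 319 on the plate of animal 1 and 335 of 339 on that of animal 2. These held 35542100 and 42280920 counts, with a median of 101207 and 119126 per well. Wells were given to 7 lists of cell type markers and named after them as cartilage-like (71 wells in animal 1 and 76 in animal 2), fibroblast-like (44 and 50), tendon-like (47 and 32), articular-like (25 and 43), osteoblast-like (10 and 10) and mural-like (16 and 6). In these groups all but 1 of each list's usable markers, and all 9 of the osteoblast list, were highest in their own group in both animals. The wells had been placed by these same markers, so this is not a separate check of the names. Of the 8 markers in the list for periosteal progenitors only Postn and Ptprd were highest in its group of 36 and 27 wells, so it is called the Postn-Ptprd group here. No list took 69 and 91 wells. The osteoblast-like wells of animal 2 stood apart: Col2a1, the main cartilage collagen, was at 7182 CPM (a gene's counts per 1000000 counts of the group) against 641 CPM in animal 1, and skeletal muscle markers summed to 1639 CPM against 36.1 CPM. Their median well had 19912 CPM over the cartilage list and 8421 CPM over the osteoblast list, against 3064 and 9214 CPM in animal 1. The osteoblast-like name is thus less sure in animal 2. Articular-like wells of animals 1 and 2 likewise had medians of 8870 and 8678 CPM over the cartilage list, and 2748 and 5993 CPM over their own. Muscle markers at 1000 CPM or more were found in 3 and 2 cartilage-like wells, 1 and 1 fibroblast-like, 1 and 1 tendon-like, and 0 and 3 osteoblast-like wells. The same 95 well barcodes served both plates. One sorted cell was meant for each well, and doublets were not searched for.

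Which copy of a mitochondrial gene a read came from bears on the counts of the mitochondrial members, so their sequences are shown first. The mouse nuclear genome carries a run of mitochondrial DNA on chromosome 1. On the GRCm38 build (GENCODE annotation) mt-Co2 lies at chrM:7013-7696 on the plus strand, and its copy Gm28661, an unprocessed pseudogene, at chr1:24614885-24615565 on the minus strand. The first 75 bases of both, 5′ to 3′, have no base in capitals because none differs, and all 681 bases of overlap were identical. The mt-Co1 stretch beginning at base 1054 of that gene, with its copy Gm29216 at chr1:24615706-24616197 on the minus strand, is shown as the contrasting case: capitals mark the bases that differ. All 6 differences of the 492-base overlap lie in the stretch shown, and the whole overlap was 98.8% identical.
mt-Co2: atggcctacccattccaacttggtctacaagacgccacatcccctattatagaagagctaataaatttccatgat
Gm28661: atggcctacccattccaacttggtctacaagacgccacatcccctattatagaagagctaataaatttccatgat
mt-Co1: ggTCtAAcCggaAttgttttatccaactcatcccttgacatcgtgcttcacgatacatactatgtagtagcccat
Gm29216: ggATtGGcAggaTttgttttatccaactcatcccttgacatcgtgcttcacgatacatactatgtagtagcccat

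Each mitochondrial transcript was cut into all windows of 75 bases, the length of the cDNA read, and each window was looked up in every other annotated transcript. For mt-Co2, mt-Atp6 and mt-Co3 the share of windows that also occur in a chromosome 1 copy was 99.5%, 99.5% and 99.9%. Each of these 3 genes had 1 count in the whole table, and their copies Gm28661, Gm10925 and Gm28437 had 13, 16 and 17 counts. For mt-Nd1, mt-Cytb and mt-Nd6 no window was shared, and these genes had 352637, 311099 and 479 counts. Between these ends, mt-Nd3 shared 97.8% of its windows and had 4073 counts, mt-Nd4 shared 61.5% (130895 counts), mt-Co1 39.8% (33637 counts), mt-Nd2 5.71% (55003 counts) and mt-Nd5 1.66% (57537 counts). With 1 count each, mt-Co2, mt-Co3 and mt-Atp6 give no usable level. How the authors' counting treated reads with more than one match is not given in the sources used here, and its part in these counts was not tested. The mitochondrial sum below rests on the other 8 genes. Among 86 nuclear members found in the annotation, 46 shared no window with another gene and 19 shared 10% or more. The highest share was 40.8%, for the pseudogene Atp5l-ps1, and Atp5g2 shared 35.8%, mostly with the pseudogene Gm10175. Cox4i2 shared none and Cox4i1 4.61%.

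The nuclear members are known targets of the factors NRF1 and the ETS family (GABP), so their promoters were searched for both, on both strands, from 250 bases before to 50 after the start site (RefSeq, GRCm38.p6; 66 of 87 nuclear members matched). The palindromic NRF1 motif GCGCATGCGC (the half-site TGCGC with its reverse complement) stood in 5 of 66 members (7.58%) and in 1.07% of all 27025 genes with a promoter in that table. The ETS motif CCGGAAG stood in 24.2% of the members and 9.93% of all genes, the YY1 motif AAGATGG in 15.2% and 7.28%, and the TATA box TATAAA in 10.6% and 15.7%. Matches of the ETS and YY1 motifs overlapped in 5 genes and those of YY1 and TATA in 7, none of them members, and no other pair overlapped. A match describes letters in this window and is not a measured binding site. The 5 members with the NRF1 motif span complexes I, III, IV and V, and their windows of 30 bases are shown with the motif in capitals.
Ndufa11, chr17:56717692-56717721, plus strand: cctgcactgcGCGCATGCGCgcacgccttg
Uqcrc1, chr9:108936668-108936697, plus strand: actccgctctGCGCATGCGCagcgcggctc
Cox6a1, chr5:115349101-115349130, minus strand: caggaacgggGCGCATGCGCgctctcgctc
Atp5k, chr5:108434430-108434459, minus strand: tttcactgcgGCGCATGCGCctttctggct
Atp5g2, chr15:102671070-102671099, minus strand: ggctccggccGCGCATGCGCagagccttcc
None of these 5 genes passed a test between the cell groups below, and their highest group mean was 1.44 to 2.20 times the lowest.

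Nuclear members together took 3.74% of all counts in animal 1 and 3.84% in animal 2, and the mitochondrial members 1.24% and 1.16%. By group, the nuclear sum was 3.43% and 3.54% of counts in the cartilage-like wells of animals 1 and 2, 3.45% and 3.74% in fibroblast-like, 3.58% and 3.75% in articular-like, 3.71% and 3.996% in tendon-like, 3.83% and 4.04% in the Postn-Ptprd group, 4.29% and 4.16% in osteoblast-like, and 4.38% and 5.28% in mural-like wells. The order of the groups was the same in both animals, from cartilage-like to mural-like. Most neighbours in that order did not differ beyond the spread between the animals: fibroblast-like, articular-like, tendon-like and Postn-Ptprd values overlapped each with the next. The cartilage-like values overlapped the fibroblast-like ones and lay below those of the remaining groups, and the osteoblast-like values lay above those of every other tested group. No test was made on these sums. The mural-like value rests on 16 and 6 wells.

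**Figure D1:**
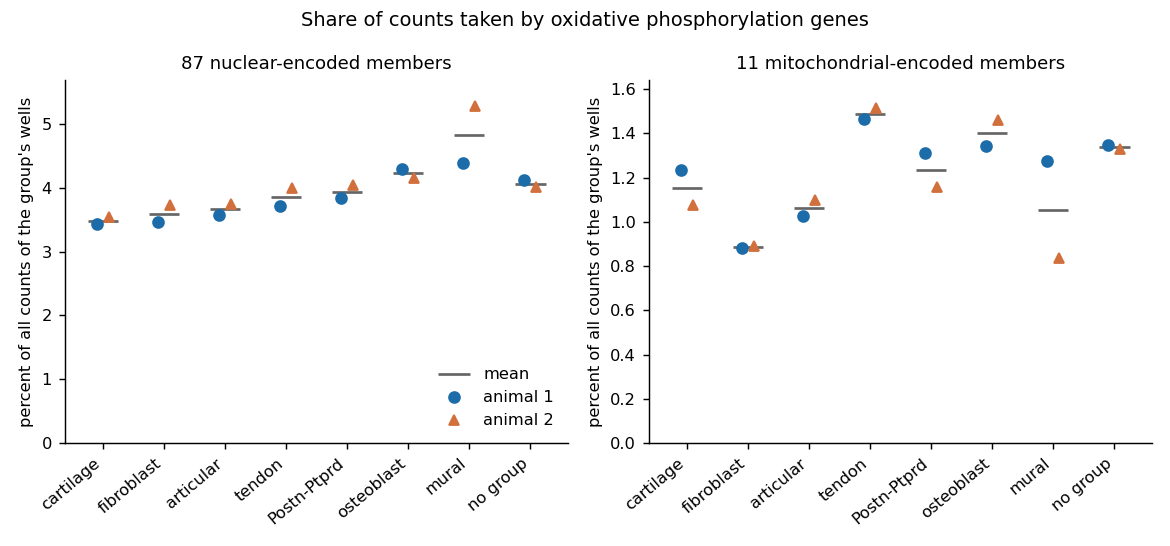
Percent of all counts taken by the nuclear-encoded (left) and mitochondrial-encoded (right) members in each marker-defined group, 1 point per animal (circle, animal 1; triangle, animal 2) and a bar at the mean. The nuclear share climbs from the cartilage-like to the mural-like group in both animals, and the fibroblast-like group is lowest among the 6 tested groups in the mitochondrial share.

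The order changed when wells were thinned to 20000 counts and those with fewer were left out, which left 9 and 10 osteoblast-like wells of 10 and 10. The osteoblast-like mean then went from 4.22% to 3.75%, under the tendon-like mean of 3.82%, so the place of this group depends on the setting. The cartilage-like mean stayed lowest at 3.49%, next to 3.51% in articular-like and 3.56% in fibroblast-like wells, and the Postn-Ptprd mean was 3.73%. The mural-like mean stayed highest at 5.07%. Unthinned sums weigh deep wells more: 1 of the 10 osteoblast-like wells of animal 1 held 416555 of the group's 1469517 counts, with a nuclear share of 5.56%. The group also held wells of low nuclear and high mitochondrial share. In 1 well of animal 1 (62957 counts) these were 1.23% and 4.18%, and in 1 of animal 2 (38116 counts) 0.498% and 3.59%. A further well of animal 1, with 9767 counts, had 0.788% and 3.54% and was left out by thinning. The part of these wells in the shift was not tested. The median nuclear share of an unthinned well was 3.87% and 3.82% in osteoblast-like and 3.55% and 4.05% in Postn-Ptprd wells. It was 3.35% and 3.45% in cartilage-like, 3.39% and 3.62% in fibroblast-like and 3.57% and 3.80% in tendon-like wells. In articular-like wells it was 2.90% and 3.79%, and in mural-like wells 4.66% and 4.70%. By this median the articular-like group was lowest in animal 1 and the cartilage-like group in animal 2, so the order differed between the animals.

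The order of the groups was looked at complex by complex. Complex I genes summed to 1.15% and 1.19% of counts in cartilage-like wells of animals 1 and 2 and to 1.41% and 1.33% in osteoblast-like wells. Complex II, which links the chain to the citric acid cycle, summed to 0.0350% and 0.0487% in cartilage-like and to 0.0534% and 0.0550% in Postn-Ptprd wells. Complex III genes summed to 0.387% and 0.401% in cartilage-like and 0.339% and 0.371% in fibroblast-like wells. Complex IV summed to 1.02% and 1.01% in cartilage-like and 1.35% and 1.25% in osteoblast-like wells. Complex V summed to 0.839% and 0.889% in cartilage-like and 1.02% and 1.09% in osteoblast-like wells. The cartilage-like and osteoblast-like values did not overlap for complexes I, III, IV or V, and they overlapped for complex II, where osteoblast-like wells had 0.0676% and 0.0332%. These are sums over unthinned wells, so the deep osteoblast-like well of animal 1 weighs on them too. Thinned sums are not given by complex.

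Counts were summed per animal and group and each of the 6 groups with at least 10 wells per animal was set against the average of the other 5 (edgeR quasi-likelihood test, animal as block, 13246 genes, adjusted p under 0.05). Of the 98 members 92 passed the filter on low counts, 84 nuclear and 8 mitochondrial. Those not tested were Atp5l-ps2, Atp5l2-ps, Cox7b2, mt-Co2, mt-Co3 and mt-Atp6. In the test for any difference among the groups 1 of 92 members, Cox4i2, passed, where 0.589% of all tested genes did. The unadjusted p was under 0.05 for 15 of the members, and DESeq2 called 10. Over all tested genes these counts were 1331 and 1027 of 13246. Of the 84 nuclear members 83 passed in no contrast. A missed threshold does not show equal levels: the median standard error of a nuclear member with a mean of 100 CPM or more was 0.19 to 0.20 on the log2 scale.

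Over the 67 nuclear members with a mean of at least 100 CPM, the highest group mean was 1.08 to 2.99 times the lowest, with a median of 1.46, and it was under 2 times for 61 of them. The highest mean was in osteoblast-like wells for 27 of the 67, and the lowest in cartilage-like wells for 21 and in fibroblast-like wells for 16. For 2 members, Ndufb9 and Ndufb11, the same groups were highest and lowest in both animals. The medians of the fold changes over these 67 genes lay near 0 in each contrast: 0.02 in cartilage-like, −0.08 in fibroblast-like, 0.16 in tendon-like, −0.14 in articular-like, 0.06 in Postn-Ptprd and 0.11 in osteoblast-like wells (log2). Over all 1416 tested genes at that level the medians were 0.16, −0.08, 0.09, −0.01, 0.01 and −0.08. Over every tested gene the median log2 difference was 0.40 in cartilage-like, 0.28 in fibroblast-like, 0.10 in tendon-like, 0.09 in articular-like, 0.21 in Postn-Ptprd and −0.57 in osteoblast-like wells, and the fold changes given here can be read against those shifts.

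**Figure D2:**
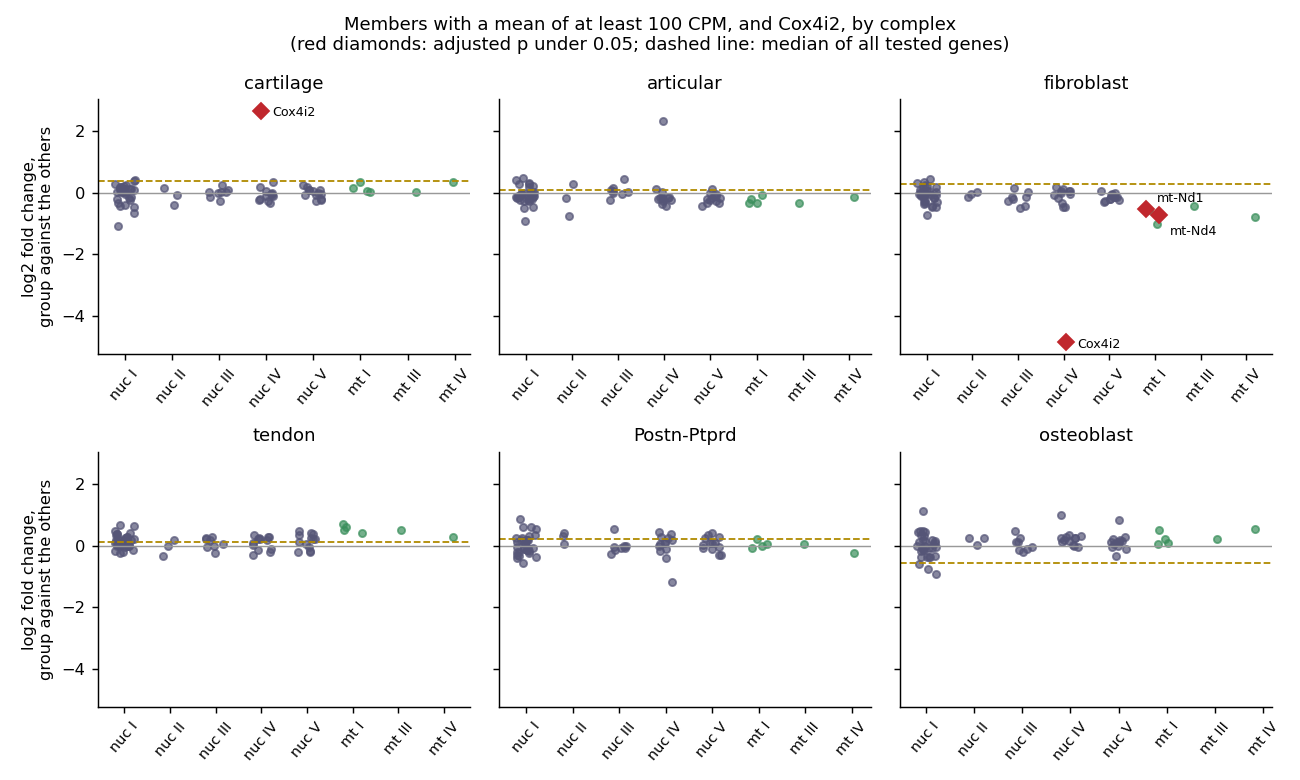
Log2 fold change of each group against the mean of the other groups, 1 point per gene, for nuclear (nuc) and mitochondrial (mt) members with a mean of at least 100 CPM, plus Cox4i2, arranged by complex. Red diamonds mark adjusted p under 0.05 and the dashed line is the median over all tested genes; apart from Cox4i2, nearly all nuclear members lie within 1 of 0.

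In complex I the widest range was that of Ndufa1, an X-linked accessory subunit of the membrane arm. It stood at 544 and 694 CPM in osteoblast-like wells of animals 1 and 2, at 335 and 360 in tendon-like, 275 and 297 in cartilage-like, 201 and 367 in articular-like, 226 and 219 in Postn-Ptprd and 179 and 236 CPM in fibroblast-like wells. The osteoblast-like values did not overlap those of any other tested group. The log2 fold change was 1.13 ± 0.20 (SE) and missed the threshold (edgeR adjusted p = 0.0548). It passed with 4 of the other settings tried in edgeR, among them the one without muscle-marker wells. The flavoprotein subunit Ndufv1, which accepts electrons from NADH, was at 69.98 and 54.0 CPM in cartilage-like wells and at 185 and 178 CPM in the Postn-Ptprd group. Its fold change in cartilage-like wells was −1.08 ± 0.50 (edgeR adjusted p = 0.516), and the 2 osteoblast-like values, 204 and 35.4 CPM, were far apart. Ndufs3, a core subunit, was at 70.8 and 70.2 CPM in osteoblast-like wells and between 89.7 and 160 CPM in the other tested groups. Its fold change of −0.92 ± 0.28 did not pass (edgeR adjusted p = 0.192). At the other end, Ndufb4 had a highest group mean 1.08 times its lowest.

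Complex II and III members gave no call in any contrast. The iron-sulfur subunit Sdhb was at 143 and 238 CPM in cartilage-like wells and 314 and 141 CPM in osteoblast-like wells, so the animals differed more than the groups. Sdha, the flavoprotein subunit, had few counts, from 1.31 CPM in osteoblast-like wells of animal 2 to 107 CPM in fibroblast-like wells of animal 1. The hinge protein gene Uqcrh of complex III was at 1033 and 987 CPM in fibroblast-like wells and between 1135 and 1449 CPM in the other tested groups. The fibroblast-like values were below every other one, with a log2 fold change of −0.44 ± 0.12 that did not pass (edgeR adjusted p = 0.179).

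In complex V the epsilon subunit Atp5e was at 2514 and 2072 CPM in tendon-like wells and 1694 and 1654 CPM in fibroblast-like wells, with a tendon-like fold change of 0.48 ± 0.11 (log2; edgeR adjusted p = 0.297, DESeq2 called it). Atp5a1, the alpha subunit of the catalytic head, was at 455 and 953 CPM in osteoblast-like wells and between 325 and 444 CPM in the other tested groups. Its osteoblast-like values lay above all others, 0.82 ± 0.25 on the log2 scale (edgeR adjusted p = 0.192). The genes Atp5g1, Atp5g2 and Atp5g3 encode the same ring subunit c with different import signals. Atp5g1 ranged from 301 to 514 CPM over the 6 tested groups and both animals, Atp5g3 from 272.02 to 404 CPM and Atp5g2 from 11.1 to 50.5 CPM, and none passed a test.

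Cox4i2 was the only nuclear member that passed a test between groups in edgeR with the main settings, and some other settings lost its calls. DESeq2 also called 2 nuclear members in tendon-like wells (2.38%, against 1.93% of all tested genes). In osteoblast-like wells it called 3 (3.57%, against 10.4%). Cytochrome c oxidase carries 1 of 2 forms of subunit 4: Cox4i1 is the form of most tissues, and Cox4i2 is known from lung and smooth muscle and for induction by low oxygen. Cox4i2 (chr2:152754173-152765037, plus strand, GRCm38, protein-coding) was at 173 and 211 CPM in cartilage-like wells of animals 1 and 2 and at 202 and 167 CPM in articular-like wells. It was at 131 and 51.8 CPM in osteoblast-like, 103 and 151 in mural-like, 52.4 and 38.0 in tendon-like, and 20.2 and 25.9 CPM in Postn-Ptprd wells. In fibroblast-like wells it was at 4.28 and 1.72 CPM, below every other group in both animals. Cartilage-like and articular-like values overlapped and lay above all other tested groups.

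Cox4i2 was higher in cartilage-like wells than in the mean of the other groups, by 2.65 ± 0.35 on the log2 scale (edgeR adjusted p = 0.0432). It was 1 of the 16 genes higher there, 0.121% of those tested. No member was lower in cartilage-like wells (6 genes in all, 0.0453%; 0 members at unadjusted p under 0.05). In fibroblast-like wells Cox4i2 was lower by 4.86 ± 0.59 (log2 −4.86; edgeR adjusted p = 0.0126), where 32 genes or 0.242% were lower, 0.559% higher and 0.8% changed in either direction. No member was higher there (0 at an unadjusted p under 0.05 and 0 by DESeq2). Both calls were lost without the wells that held muscle markers, where the log2 fold changes were 2.73 and −4.74 and the edgeR adjusted p values 0.134 and 0.0849. The cartilage-like call was also lost with DESeq2 size factors (adjusted p = 0.0577) and with a gate margin of 0 or 0.5 (0.0963 and 0.0709). The fibroblast-like call held in 11 of 12 other settings, and DESeq2 made both calls. The fold change kept its sign in each animal alone, 2.18 and 3.01 in cartilage-like and −4.27 and −5.12 in fibroblast-like wells.

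**Figure D3:**
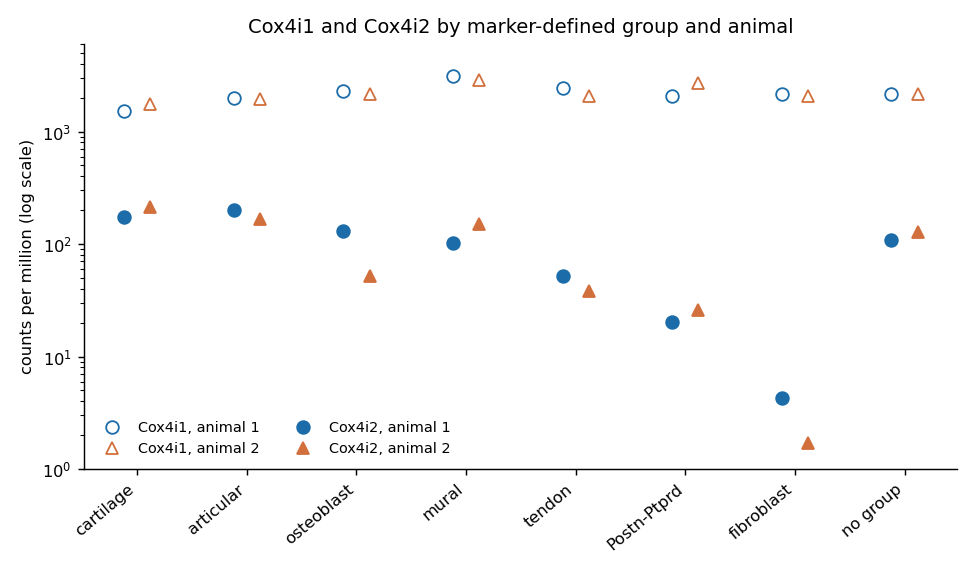
Counts (CPM) of Cox4i1 (open) and Cox4i2 (filled) by group and animal on a log scale; circles are animal 1 and triangles animal 2. Cox4i1 stays between 1517 and 3141 CPM, while Cox4i2 runs from 211 CPM in cartilage-like wells to 1.72 CPM in fibroblast-like wells.

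The share of wells with a Cox4i2 count was taken after thinning wells to 20000 counts and leaving out those with fewer (1 cartilage-like and 1 osteoblast-like well of animal 1 among the named groups). In cartilage-like wells it was 35 of 70 (50%, 95% exact binomial interval 37.8% to 62.2%) in animal 1 and 47 of 76 (61.8%, 49.98% to 72.8%) in animal 2. In articular-like wells it was 44.0% and 44.2%, and in fibroblast-like wells 2.27% (0.0575% to 12.02%) and 4% (0.488% to 13.7%). It was 44.4% and 40% in osteoblast-like wells (9 and 10 wells), 50% and 50% in mural-like (16 and 6 wells), 14.9% and 12.5% in tendon-like and 22.2% and 14.8% in Postn-Ptprd wells. Fibroblast-like shares were thus the lowest in both animals, while osteoblast-like and mural-like shares lay near the articular-like ones. Without thinning the fibroblast-like shares were 9.09% and 8% and the cartilage-like ones 57.7% and 72.4%. Such intervals cover counting error only. The median depth was 117644 and 131940 counts in fibroblast-like wells and 109438 and 131747 in cartilage-like wells. The part of depth in these shares was not tested further.

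The articular-like log2 fold change of Cox4i2, 2.33 ± 0.35, did not pass (edgeR adjusted p = 0.297; DESeq2 called it), and no gene at all passed in that contrast (0% of 13246). In the Postn-Ptprd group it was −1.20 ± 0.46 and in the osteoblast-like group 0.99 ± 0.39 (edgeR adjusted p = 0.5495 and 0.3001). The osteoblast-like value turned to −0.11 without the well of each group and animal that held most Cox4i2 counts. Over all kept wells, the top well held 3.70% of the gene's counts.

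Cox4i1 did not follow. It was at 1517 and 1768 CPM in cartilage-like wells and 2159 and 2054 CPM in fibroblast-like wells, with log2 fold changes of −0.28 ± 0.13 and −0.04 ± 0.12 (edgeR adjusted p = 0.489 and 1.0). Cox4i2 made up 10.2% and 10.7% of the counts of both forms together in cartilage-like wells, 9.17% and 7.83% in articular-like, 5.39% and 2.33% in osteoblast-like, 2.08% and 1.81% in tendon-like, 0.970% and 0.951% in Postn-Ptprd and 0.198% and 0.0836% in fibroblast-like wells. These counts were not divided by transcript length, so the share serves to compare groups and not the forms.

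The other subunit pairs with tissue forms showed the widely expressed form in every group. Cox6a1 was between 889 and 1847 CPM over the 6 tested groups and both animals, and its muscle form Cox6a2 between 0 and 17.3 CPM with counts in 0.766% of wells. Cox7a2 was between 850 and 1503 CPM and its muscle form Cox7a1 between 0 and 10.7 CPM. Cox8a was between 467 and 897 CPM and its muscle form Cox8b between 0 and 7.28 CPM. In fibroblast-like wells Cox7a2 stood at 850 and 872 CPM, with a fold change of −0.46 ± 0.12 (log2; edgeR adjusted p = 0.173). Cox6b1 was between 755 and 1402 CPM and Cox6b2, known from testis, between 0 and 116 CPM, with the 2 animals up to 116 and 4.15 CPM apart in articular-like wells. Cox7b was between 489 and 942 CPM, Cox7a2l, a factor in joining complexes III and IV, between 208 and 325 CPM, and the 35 counts of Cox7b2 lay in a single well.

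Cox8c, another isoform known from testis, was at 27.2 and 61.8 CPM in cartilage-like wells and at 0 in fibroblast-like and osteoblast-like wells of both animals. In articular-like wells it was at 0.420 and 23.6 CPM. After thinning, 7.14% and 14.5% of cartilage-like wells had a count (95% intervals 2.36% to 15.9% and 7.45% to 24.4%), and 0 of 44 and 0 of 50 fibroblast-like wells, which allows up to 8.04% and 7.11%. The difference in cartilage-like wells did not pass (edgeR adjusted p = 0.314), and it passed after this thinning.

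The 8 mitochondrial genes with usable counts are taken next. Their sum was 0.882% and 0.889% of counts in fibroblast-like wells of animals 1 and 2, 1.03% and 1.10% in articular-like, 1.24% and 1.08% in cartilage-like, 1.31% and 1.16% in Postn-Ptprd, 1.34% and 1.46% in osteoblast-like and 1.46% and 1.52% in tendon-like wells. In these sums the fibroblast-like values lay below those of all other tested groups. The median share of a well was 0.986% and 0.841% in fibroblast-like and 0.986% and 0.9995% in articular-like wells. By that median the 2 groups were alike in animal 1. In mural-like wells, which were not tested, the sum was 1.27% and 0.836%, the latter below the fibroblast-like values. The tendon-like and osteoblast-like values met at 1.46%, and those of the articular-like and cartilage-like groups overlapped.

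mt-Nd1, the membrane subunit at the quinone site of complex I, was at 3372 and 3331 CPM in fibroblast-like wells of animals 1 and 2. It was at 3900 and 4274 CPM in articular-like, 4384 and 4075 in cartilage-like, 4869 and 4425 in Postn-Ptprd, 4517 and 5094 in osteoblast-like and 5640 and 5868 CPM in tendon-like wells. The fibroblast-like values were the lowest and the tendon-like ones the highest, with no overlap with any other tested group. It was lower in fibroblast-like wells (log2 −0.54 ± 0.09, edgeR adjusted p = 0.0475). In tendon-like wells the fold change was 0.60 ± 0.08 and missed the threshold (edgeR adjusted p = 0.0525), where 0.189% of genes were higher and 0% lower. mt-Nd4, a proton-pumping subunit, was at 1081 and 1128 CPM in fibroblast-like wells and between 1302 and 2371 CPM in the other tested groups, and was also lower there (log2 −0.73 ± 0.12, edgeR adjusted p = 0.0475). Each fibroblast-like call held in 5 of 11 other settings with both animals. Both were lost without the muscle-marker wells (edgeR adjusted p = 0.0547 and 0.0558, log2 −0.50 and −0.68), with no filter on low counts (0.0969 and 0.0861), with at most 10% mt- counts (0.0581 and 0.0795), with a gate margin of 0 (0.0518 and 0.0526) and with the mural-like group added (0.315 and 0.298). The mt-Nd4 call was also lost with a margin of 0.5 (0.0572), and the mt-Nd1 call without the top Cox4i2 wells (0.0773). Over these settings the log2 fold change ran from −0.60 to −0.43 for mt-Nd1 and from −0.74 to −0.61 for mt-Nd4.

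**Figure D4:**
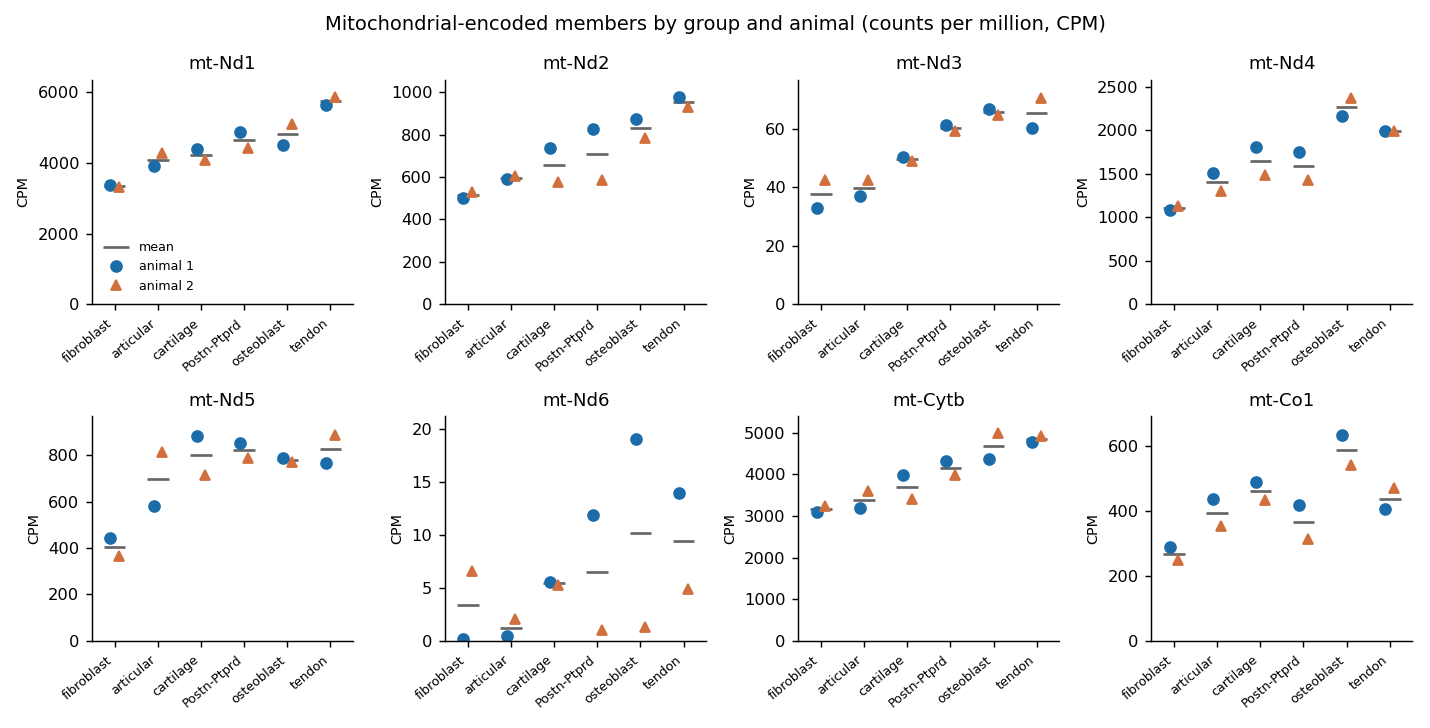
Counts (CPM) of the 8 mitochondrial members with usable counts in the 6 tested groups, 1 panel per gene, 1 point per animal and a bar at the mean. The fibroblast-like group has the lowest mean for all but mt-Nd6, which has few counts, and the highest mean is in tendon-like or osteoblast-like wells.

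The other mitochondrial members gave no call. mt-Nd5 was at 444 and 366 CPM in fibroblast-like wells and between 581 and 886 CPM in the other tested groups (log2 −1.01 ± 0.19, edgeR adjusted p = 0.0638). mt-Co1, the catalytic subunit of complex IV, was at 289 and 249 CPM there and at 633 and 542 CPM in osteoblast-like wells (fibroblast-like log2 −0.78 ± 0.16, edgeR adjusted p = 0.0921). mt-Nd2 was at 503 and 530 CPM in fibroblast-like and 977 and 933 CPM in tendon-like wells. mt-Cytb was at 3098 and 3241 CPM in fibroblast-like and 4778 and 4936 CPM in tendon-like wells (edgeR adjusted p = 0.143 in fibroblast-like and 0.215 in tendon-like wells). mt-Nd3 was between 32.9 and 70.6 CPM over all tested groups. mt-Nd6, encoded on the other strand of the mitochondrial genome, had 479 counts in all and its animals disagreed, with 0.195 and 6.59 CPM in fibroblast-like wells.

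The fold change was below 0 for 8 of 8 mitochondrial members in fibroblast-like wells (median −0.59) and in articular-like wells (−0.33), and above 0 for 8 of 8 in tendon-like (0.52) and osteoblast-like wells (0.27). In cartilage-like wells 8 of 8 were above 0 with TMM scaling but 4 of 8 with DESeq2 size factors, so no direction is given there. Over the same contrasts, 53 of 84 nuclear members were below 0 in fibroblast-like and 56 of 84 above 0 in tendon-like wells. Among genes with a mean of 100 CPM or more, this was 46 of 67 nuclear members (68.7%) against 800 of all 1416 genes (56.5%), and 47 of 67 (70.1%) against 862 (60.9%). Most of the mitochondrial members are read from shared long transcripts and they are not independent of each other. Mitochondrial ribosomal RNA moved with this result, and depth did so for some groups only. The median depth was 117644 and 131940 counts in fibroblast-like wells and 95789 and 101412 in tendon-like wells. Articular-like wells, also low in the mitochondrial sum, had 83497 and 102947. Osteoblast-like wells, among the highest in that sum, had 128189 and 146426. In single wells the mitochondrial share had a rank correlation with depth of −0.28 in animal 1 and −0.29 in animal 2. The mitochondrial rRNA share was 1.56% and 1.62% in fibroblast-like and 2.61% and 2.47% in tendon-like wells. With wells thinned to 20000 counts the fibroblast-like sum was 0.958% and the tendon-like sum 1.53%. The part of depth in the result was not tested further.

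In single wells the nuclear and mitochondrial parts were only loosely tied. The nuclear share had a median of 3.55% and 3.75% in the wells of animals 1 and 2, with 5% of wells below 2.35% and 2.61% and 5% above 5.31% and 5.11%. The mitochondrial share had a median of 1.23% and 1.14%. For rho between the parts, the nuclear share was taken of counts outside mt- genes and the mitochondrial share of all counts. Across the 318 and 335 wells Spearman's rho between these shares was 0.19 and 0.24. Within groups it ran from −0.27 in the 10 osteoblast-like wells of animal 1 to 0.41 in the cartilage-like wells of animal 1. With all shares taken of all counts, rho between the nuclear genes of complexes I and IV was 0.62 and 0.46. Between mitochondrial members and mitochondrial rRNA it was 0.68 and 0.64. These points share a well's library and depth. The shares of all counts also have a common denominator. The denominators of the nuclear and mitochondrial parts are nearly the same too. They differ only by the mt- counts, a median of 3.48% and 3.27% of a well's counts in animals 1 and 2.

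**Figure D5:**
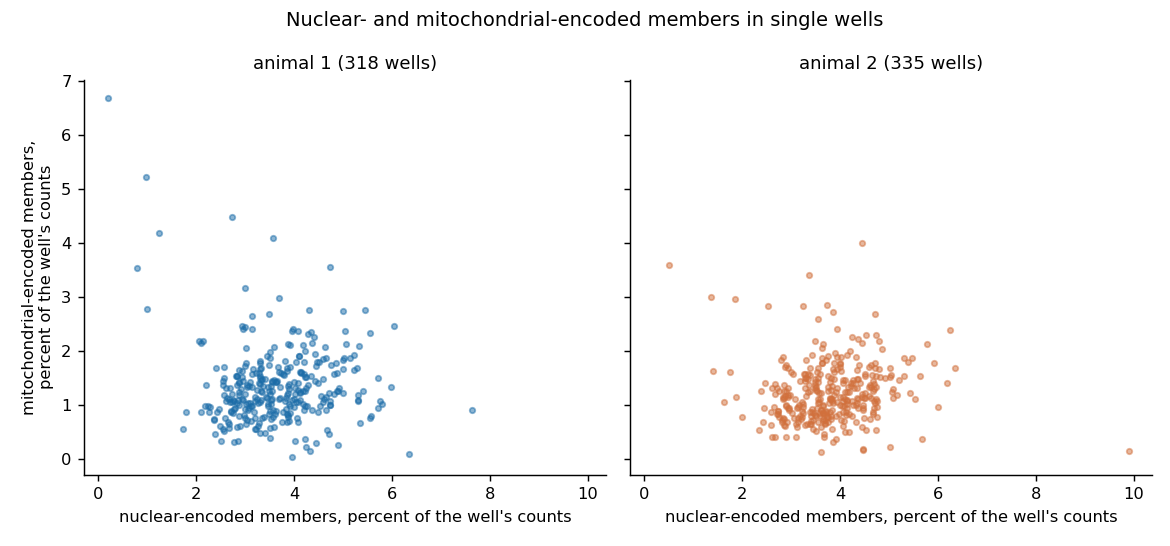
Each point is 1 kept well, with the nuclear-encoded members' percent of its counts on the x axis and the mitochondrial-encoded members' percent on the y axis, for animal 1 (left) and animal 2 (right). Most wells lie between 2% and 6% on x and under 3% on y, with a few wells of low nuclear and high mitochondrial share. The relation is loosely positive (rho 0.19 and 0.24, computed with the nuclear share of counts outside mt- genes).

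Genes that build or feed the chain were counted on lists beside the members. Of 43 tested assembly factors, which put the complexes together, none passed in any contrast, with 0 to 5 of them at an unadjusted p under 0.05 in a given direction and contrast, and DESeq2 called 0 to 5 per contrast. Of 16 enzymes of pyruvate oxidation and the citric acid cycle none passed, with 0 to 2 at an unadjusted p under 0.05 and none called by DESeq2. Of 23 tested genes for mitochondrial biogenesis and the copying and reading of mitochondrial DNA none passed (0 to 5 at an unadjusted p under 0.05; DESeq2 called 0 or 1). Over all tested genes, 1.57% to 9.63% were at an unadjusted p under 0.05 in a given direction and contrast. DESeq2 called 1.37% to 10.4% of them per contrast. The counts of the lists and these shares are both ranges over the contrasts. A list's highest count is therefore not set beside the share of its own contrast, and no likeness to all genes is claimed. Of 14 genes on a list of electron carriers, mitochondrial exchangers and related proteins, which also holds Ndufa4l2, Ndufab1 and Atpif1, 1 passed: Slc25a5, which trades ADP for ATP across the inner membrane. It was at 1187 and 927 CPM in osteoblast-like wells, above all other tested groups (349 to 684 CPM), by 1.10 ± 0.17 on the log2 scale (edgeR adjusted p = 0.0375). In that contrast 0.249% of genes were higher, 0.476% lower and 0.725% either, and no member was called in either direction (7 nuclear and 2 mitochondrial members higher and 2 nuclear lower at an unadjusted p under 0.05). At that p 4.8% of all tested genes were higher and 9.57% lower. With a mean of 100 CPM or more, 6 of 67 nuclear members (8.96%) and 2 of 6 mitochondrial members were higher, against 11.5% of 1416 genes. Lower at that level were 2 of 67 nuclear members (2.99%), against 17.4%. The Slc25a5 call was lost with no filter on low counts (0.0584) and with the mural-like group added (0.0719).

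Of 16 genes of glycolysis, the route that makes ATP without the respiratory chain, none passed in edgeR in any contrast. The median log2 difference of the list was 1.08 in cartilage-like wells, with 15 of 16 above 0 and 8 at an unadjusted p under 0.05, and −0.58 in fibroblast-like wells, with 11 of 16 below 0 and 6 at an unadjusted p under 0.05. DESeq2 called 2 and 4 of them. Over all tested genes the medians were 0.40 and 0.28. Of those genes 66.7% were above 0 in cartilage-like wells, with 8.95% higher at an unadjusted p under 0.05 and 2.33% called by DESeq2, and in fibroblast-like wells these shares were 40% below 0, 2.83% lower and 3.93%. Among the 1416 tested genes with a mean of 100 CPM or more they were larger: 63.5%, 19.4% and 10% in cartilage-like wells. In fibroblast-like wells they were 56.5%, 16.1% and 13.2%. The counts of the list were not restricted to that level. The summed list was at 0.285% and 0.339% of counts in cartilage-like and 0.165% and 0.182% in fibroblast-like wells, without overlap, and at 0.316% and 0.348% in articular-like wells. The nuclear oxidative phosphorylation sum of cartilage-like and fibroblast-like wells overlapped.

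In the tendon-like, articular-like and Postn-Ptprd contrasts no member was called in edgeR. At an unadjusted p under 0.05 there were 11 nuclear and 5 mitochondrial members higher in tendon-like wells, 1 nuclear higher and 4 nuclear and 3 mitochondrial lower in articular-like wells, and 3 nuclear higher and 4 lower in the Postn-Ptprd group. Over all 13246 genes, 6.38% were higher in tendon-like wells, 5.31% higher and 2.22% lower in articular-like wells, and 6.55% higher and 1.57% lower in the Postn-Ptprd group at an unadjusted p under 0.05. With a mean of 100 CPM or more, the tendon-like count was 11 of 67 nuclear members (16.4%) against 188 of 1416 genes (13.3%). DESeq2 called 5, 1 and 0 members in these contrasts, and 1.93%, 1.58% and 1.37% of all tested genes. With a mean of 100 CPM or more, its tendon-like calls were 2 of 67 nuclear members (2.99%) and 3 of 6 mitochondrial members, against 5.93% of 1416 genes. In the Postn-Ptprd group 0.0302% of genes were higher and 0% lower. Among the 16 tendon-like genes was Ndufa13, a complex I subunit also known as GRIM-19, at 1132 and 985 CPM in tendon-like wells and between 520 and 1017 CPM elsewhere. Its fold change of 0.68 ± 0.17 did not pass (edgeR adjusted p = 0.328). Ndufa4l2, a relative of Ndufa4 that is known to be induced by low oxygen and is not a member, was at 7.53 and 23.5 CPM in the Postn-Ptprd group, 71.3 and 41.4 in fibroblast-like, 176 and 251 in cartilage-like and 391 and 376 CPM in mural-like wells. Its Postn-Ptprd fold change of −3.54 ± 0.64 did not pass (edgeR adjusted p = 0.160).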

How the data were processed

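Whole-number counts per gene and well were used as deposited by the authors (build mm10 and CASAVA, per the submitters' processing notes). For the aligner, counter, annotation, reads with several matches and duplicate collapsing, the entry is: not given in the sources used here. Counts were not taken as molecules: nonzero values had a median of 18 and 23.1% of them were 1. Kept wells had at least 500 genes and at most 20% mt- counts. In each animal, log2(counts per 10000 + 1) of every marker with a count in at least 5 wells was scaled and averaged over its list, and the average scaled again. A well joined its top list when that score was at least 0.5, exceeded the next by at least 0.25, and at least 2 markers had a count. Counts were summed per animal and group (12 libraries) and tested with edgeR 4.0.16 under R 4.3.3 (limma 3.58.1): TMM, filterByExpr, glmQLFit and glmQLFTest, animal as block, 5 residual degrees of freedom, Benjamini-Hochberg over 13246 genes, threshold 0.05. Marker genes of the gates were left out of the rows tested. DESeq2 1.42.0 was an alternative. The standard error is the fold change divided by the square root of F. Each animal gave a library of every group, so the block pairs libraries by animal. The fits were tested on simulated counts. Python 3.11.15, numpy 2.4.6, pandas 2.3.3, scipy 1.17.1 and matplotlib 3.10.9 did the rest.

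The members and lists were chosen with earlier results of these data known. Named are members called, the isoform list, the mt- members, and the extremes of a complex in a contrast where counts were not too few to compare; other extremes were left out after seeing their values, and Ndufs3, Uqcrh, Atp5e, Ndufb4, Ndufb9, Ndufb11 and Ndufa13 were added then, as were the pathway genes that missed the threshold. The plan spoke of 13 mt- members, and 11 were analysed here. The groups of the main fit were kept in every alternative, a choice made after the data were seen, since some alternatives left fewer than 10 osteoblast-like wells.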

Additional observations from a re-analysis of the deposited data

How the results depend on the processing

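Counts of members called in edgeR moved with the settings. In cartilage-like wells the count of 1 became 0 with DESeq2 size factors, gate margins of 0 and 0.5 and without muscle-marker wells, and 2 with wells thinned to 20000 counts. In fibroblast-like wells the count of 3 became 6 with the DESeq2 test, 0 without muscle-marker wells, and 1 with no filter, mt- genes left out, the mural-like group added (at least 3 wells), at most 10% mt- counts or a margin of 0. In tendon-like wells 0 became 5 with DESeq2, 2 thinned, and 1 (mt-Nd1) with size factors, a margin of 0.5 or no muscle-marker wells. In articular-like wells 0 became 1 with DESeq2. In osteoblast-like wells 0 became 5 with DESeq2, 2 with size factors, and 1 with at most 10% mt- counts, thinned, without muscle-marker wells or without the top Cox4i2 wells. For any difference, 1 became 10 with DESeq2, 4 thinned, and 0 with margins of 0 and 0.5 or without muscle-marker wells. The Postn-Ptprd count was 0 in all 12 settings. With no replicate block the fibroblast-like count was 4, and the block changed no other count by over 1.5 times; the pairing is by animal.

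Nuclear sums moved beyond 1 SD as follows: cartilage-like 3.59% as a share of counts outside mt- genes; articular-like 3.51% and Postn-Ptprd 3.73% thinned; osteoblast-like 4.3998% with at most 10% mt- counts, 4.38% with a margin of 0, 3.75% thinned, 4.35% without muscle-marker wells and 4.38% outside mt- genes. Mitochondrial sums moved in fibroblast-like wells to 0.900% and 0.875% (margins 0 and 0.5), 0.958% (thinned) and 0.901% (without muscle-marker wells), in tendon-like wells to 1.54% (margin 0.5) and 1.53% (thinned), in articular-like wells to 1.13% (thinned) and in osteoblast-like wells to 1.31% (at most 10% mt- counts) and 1.66% (thinned). Leaving out either animal gives the other animal's value printed in the report. The Cox4i2 fold change reversed in tendon-like wells, from 0.09 to −0.085 with the mural-like group added and −0.26 thinned, and in osteoblast-like wells to −0.11 without the top wells. The cause was not tested. Leaving out muscle-marker wells or top Cox4i2 wells was chosen after seeing the data.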
